A study of Homo sapiens with 8 samples.

Results

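The genes described here are ABCB5, HAS2, TRIM63, ESRP1, APOLD1 and DYNC1I1, chosen by the size of their mRNA falls after knockdown of the transcription factor MITF, as the largest once genes of the melanosome and of mitosis had been set aside. They are 6 of 18244 genes with a probe set that carries their symbol alone, and 18 of 45278 such probe sets. All 6 were among the 11947 genes with a signal high enough to be tested. The arrays with the MITF siRNA and with its control siRNA chose the genes, so their values there are given as a description, and the arrays with the inhibitor THZ1 and its solvent, which took no part in the choice, carry the tests.

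MITF is a basic helix-loop-helix leucine zipper protein that binds short E-box words in DNA and directs the melanocyte lineage, including the genes of pigment synthesis, and many melanomas keep it active. CDK7 is a kinase of the general transcription factor TFIIH that phosphorylates RNA polymerase II early in transcription and also activates cell cycle kinases. Short-lived mRNAs are known to fall first when transcription is blocked, while long-lived ones can outlast a short treatment. The 6 genes share no single pathway: they encode a membrane transporter, a polysaccharide synthase, a ubiquitin ligase, a splicing regulator, an early response protein and a subunit of a motor.

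SK-MEL-5, an established human melanoma line and the single line used, was measured on 8 Affymetrix arrays, with 2 per group. The first group received THZ1, a covalent CDK7 inhibitor, at 250 nM in DMSO for 6 h, and the second the solvent DMSO alone, for which no duration is given. The third was transfected with siRNA against MITF (siMITF) and the fourth with a non-targeting siRNA (siCtrl), with no harvest time given for either. The labels leave unsaid whether replicate arrays were separate cultures, so a p-value here sets a change against a spread between arrays that may be technical. On the per-cell scale described next, that spread is pooled and the same for every gene. The small number of arrays limits the precision.

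The deposited signals were cell-number normalized by the design text. The median signal over all probe sets was 51.1 and 67.6 with THZ1, 61.3 and 76.1 with DMSO, 40.1 and 32.5 with siMITF, and 51.1 and 59.3 with siCtrl. On that per-cell scale the median tested gene changed by -0.16 (log2) with THZ1 and by -0.63 with siMITF, so changes are also given on a median-centred scale, for which each array was shifted by the median deviation of its tested genes. Spike-in signals differed between the drug and the siRNA arrays (median 511 to 534 against 253 to 266), so levels are compared within each pair of groups. Of 7 melanocyte markers with a probe set, 7 reached the signal floor used for testing, PMEL with a mean of 9162, while 1 of 5 keratinocyte, 1 of 5 leukocyte and 1 of 6 endothelial markers did so. Among fibroblast markers 3 of 6 did (LUM, mean 1783), among muscle markers 2 of 6 (DES, 84.7) and among neuronal markers 5 of 6 (NEFL, 1381). MITF itself, the target of the siRNA, had signals of 1747 and 1168 with siMITF, against 3436 and 3936 for siCtrl. Its log2 change was -1.35 per cell (SE 0.25, limma adjusted p = 1.62e-06) and -0.72 on the median-centred scale (adjusted p = 3.25e-04). With THZ1 its signals were 3311 and 4178, against 4670 and 5669 with DMSO, and the change of -0.47 did not pass the test per cell (adjusted p = 0.280) but passed it on the median-centred scale (-0.27, adjusted p = 0.0497).

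In the siMITF arrays all 6 genes lay far below siCtrl, which the choice of genes fixes. Among all tested genes 63.4% were called lower and 0.326% higher per cell with siMITF, and 24.7% lower and 19.5% higher on the median-centred scale. Nothing about the 6 is read from these shares. The log2 changes per cell ran from -2.19 for ABCB5 (4.57-fold lower) to -1.88 for DYNC1I1 (3.69-fold lower), with an SE of 0.25 each, and on the median-centred scale from -1.56 to -1.25. The 6 genes hold ranks 1, 2, 3, 4, 6 and 7 in the order of falls on both scales. Rank 5 is FAM83D, a mitotic spindle protein. Just outside were RAB32, a GTPase of melanosome biogenesis (-1.85), MZT1, a partner of the gamma-tubulin complex (-1.83), the orphan nuclear receptor NR4A3 (-1.81) and the mitotic kinase PBK (-1.81). In bulk RNA, fewer cells expressing a gene and less RNA per cell cannot be told apart. The melanocyte markers summed to 17392 to 21576 with siMITF, against 27206 to 31273 for siCtrl, and the sums of the other 6 marker lists were also lower on both siMITF arrays; the part of the cells' composition in the 6 falls was not tested.

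**Figure D1:**
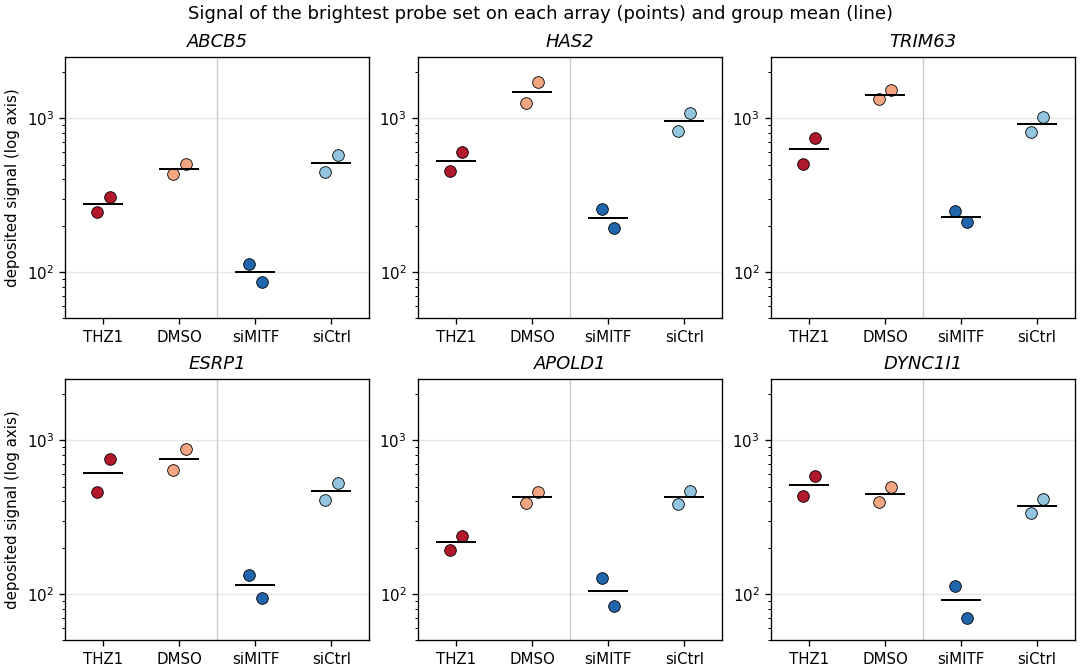
Deposited signal (log axis) of the brightest probe set of each gene on every array, with a line at the group mean of 2 arrays; THZ1 stands beside DMSO and siMITF beside siCtrl. For ABCB5, HAS2, TRIM63 and APOLD1 both THZ1 points lie below both DMSO points, whereas for ESRP1 and DYNC1I1 they overlap; the siMITF points lie below siCtrl for all 6. The share of all tested genes with such an order was not counted for THZ1 or for siMITF, and nothing is read from it.

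With THZ1, 4 of the 6 genes fell per cell, HAS2, TRIM63, APOLD1 and ABCB5, while ESRP1 and DYNC1I1 did not pass the test. Per cell, 10.0% of all tested genes were called lower and 0.0753% higher. On the median-centred scale the same 4 were called lower and DYNC1I1 was called higher, where 21.1% of tested genes were lower and 17.7% higher. The median change of the 6 genes was -0.83 per cell and -0.63 on the median-centred scale, beside -0.16 and 0.04 for all tested genes. The 6 were selected for one feature and responded to THZ1 over a range from 2.76-fold lower to 1.13-fold higher per cell. The summed signals of each of the 7 marker lists overlapped between the THZ1 and DMSO arrays. The share of all tested genes with both THZ1 arrays below both DMSO arrays was not counted. Nothing is read from that order in the genes below.

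**Figure D2:**
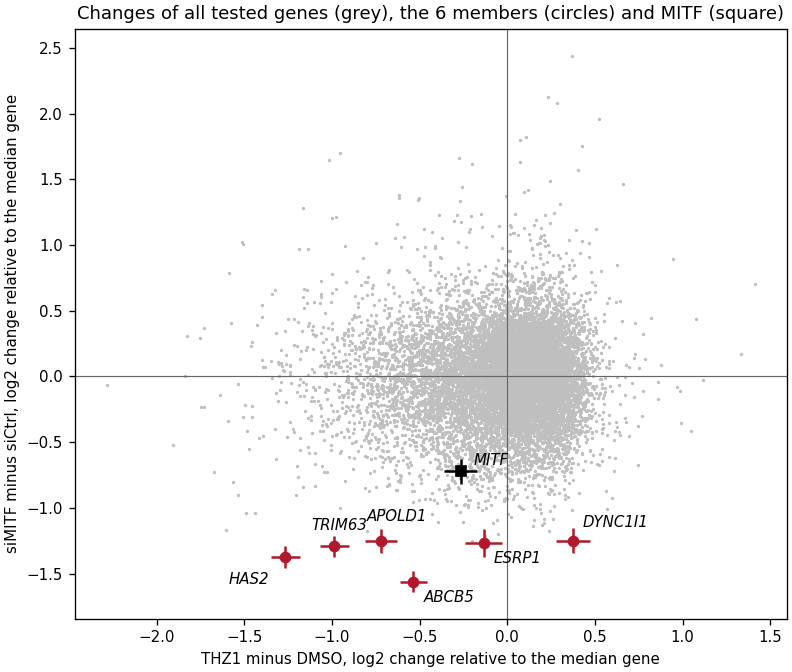
Median-centred log2 change (relative to the median gene) with THZ1 (x axis) and with siMITF (y axis) for all 11947 tested genes (grey points), the 6 genes (circles, bars of 1 SE) and MITF (square). The 6 sit in a band between -1.56 and -1.25 on the y axis, which their choice fixes, and spread from -1.27 (HAS2) to 0.37 (DYNC1I1) on the x axis.

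HAS2, the synthase that makes long hyaluronan chains at the plasma membrane and extrudes them into the matrix, had the steepest fall of the 6 with THZ1. Its signal was 452 and 599 with THZ1, against 1253 and 1715 with DMSO. The log2 change was -1.47 per cell (SE 0.25, 95% interval -1.95 to -0.99, limma adjusted p = 4.73e-07), or 2.76-fold lower, rank 57 among the falls of all tested genes. After median centring it was -1.27 (SE 0.083, adjusted p = 6.64e-06). With siMITF the signal was 258 and 194, against 828 and 1084 with siCtrl, 4.02-fold lower. Its 3 probe sets moved alike: the median-centred changes were -1.47, -1.27 and -1.30 with THZ1, and -1.52, -1.37 and -1.27 with siMITF.

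TRIM63 encodes MuRF1, a ubiquitin ligase that marks contractile proteins for degradation in wasting muscle; outside muscle it is used as a marker of kidney tumours with fusions of MITF family genes. Its signal was 507 and 747 with THZ1, against 1334 and 1516 with DMSO. The log2 change was -1.19 per cell (95% interval -1.67 to -0.71, limma adjusted p = 8.13e-05), 2.28-fold lower, and -0.99 on the median-centred scale (SE 0.081, adjusted p = 1.82e-05). With siMITF the signal was 248 and 210, against 810 and 1025 with siCtrl, 3.80-fold lower. Of its 5 probe sets, 3 fell together, with median-centred changes of -0.99, -0.90 and -0.57 with THZ1 and -1.29, -1.11 and -1.16 with siMITF. The other pair, which are dimmer and were both designed on a different transcript record, changed on that scale by 0.09 and -0.06 with THZ1 and by 0.02 and 0.02 with siMITF. So the TRIM63 falls rest on 3 probe sets, 2 of them of a design that can detect related sequences, and the remaining pair stayed near the median gene.

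**Figure D3:**
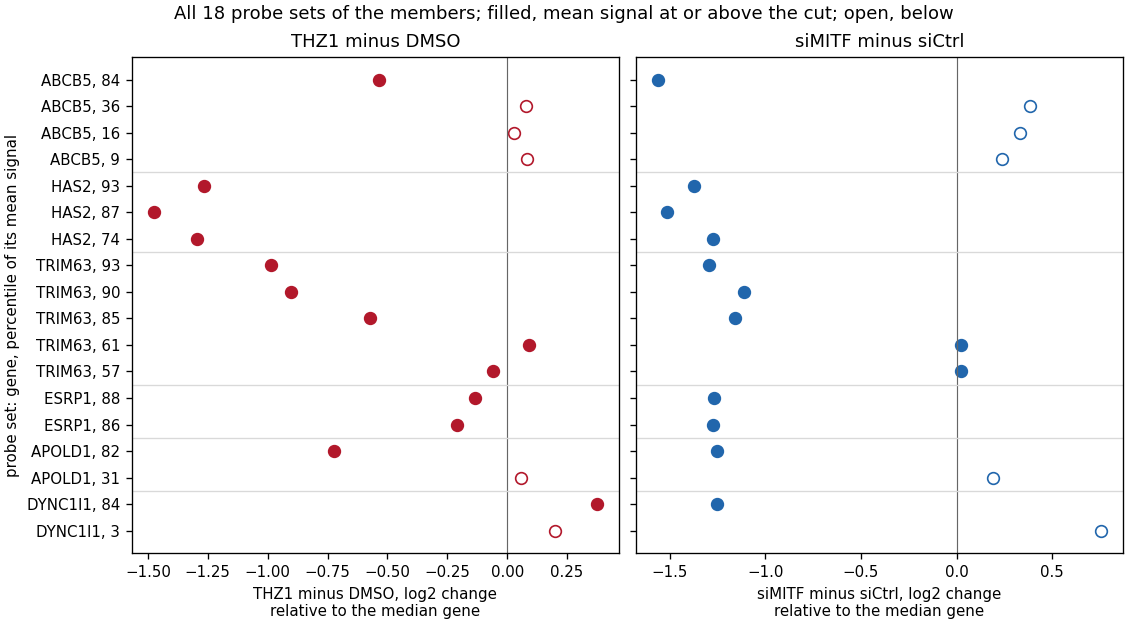
Median-centred log2 change (relative to the median gene) of each of the 18 probe sets, with THZ1 (left) and siMITF (right); each row gives the gene and the percentile of the probe set's mean signal, and open circles mark the 5 probe sets below the signal floor. The 3 HAS2 and the 2 ESRP1 probe sets move together, 2 of the 5 TRIM63 probe sets stay near 0, and the open circles lie above 0.

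The 250 bases before the gene start are shown for TRIM63, which was lower in both comparisons, and for DYNC1I1. DYNC1I1 was lower with siMITF but was not called lower with THZ1. The windows were picked to set one that holds some of the searched words beside one that holds none of them. They come from RefSeq on GRCh38.p14, TRIM63 from chr1:26067631-26067880 on the minus strand and DYNC1I1 from chr7:95772304-95772553 on the plus strand, both 5′ to 3′ along the gene. Capitals mark the word CATGTG.
TRIM63: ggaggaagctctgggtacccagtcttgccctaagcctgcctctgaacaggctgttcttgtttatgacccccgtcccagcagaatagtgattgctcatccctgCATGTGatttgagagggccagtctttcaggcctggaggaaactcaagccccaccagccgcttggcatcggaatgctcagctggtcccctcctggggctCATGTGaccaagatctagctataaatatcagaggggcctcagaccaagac
DYNC1I1: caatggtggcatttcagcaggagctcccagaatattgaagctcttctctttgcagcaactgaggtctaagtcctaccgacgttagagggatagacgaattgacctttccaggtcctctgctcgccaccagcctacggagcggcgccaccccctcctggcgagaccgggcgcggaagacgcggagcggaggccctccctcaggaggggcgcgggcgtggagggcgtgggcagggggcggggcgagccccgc
Both strands were searched for the word CACGTG, for CATGTG with its reverse complement CACATG, and for TCATGTG, which contains CATGTG. TRIM63 holds CATGTG at -148 to -143 and again at -50 to -45 from the start, and the nearer one reads TCATGTG. Of 35116 promoter windows of this length, 6.34% hold CACGTG, 9.42% hold CATGTG at least once and 0.849% hold it 2 times or more, and 2.52% hold TCATGTG. The DYNC1I1 window and both APOLD1 windows hold none of the words, although APOLD1, like TRIM63, was lower in both comparisons. This says only that these letters are not within 250 bases of the start. Other E-box words were not searched. Sequence was matched for 3 of the 6 genes, and a match is a description, not a binding site.

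ABCB5, an ATP-driven efflux transporter of the multidrug resistance family that is known as a marker of drug-tolerant melanoma cells, had the deepest fall with siMITF and a moderate one with THZ1. Its signal was 246 and 308 with THZ1, against 437 and 503 with DMSO. The log2 change was -0.73 per cell (95% interval -1.22 to -0.25, limma adjusted p = 0.0314), 1.66-fold lower, and -0.54 on the median-centred scale (SE 0.079, adjusted p = 6.18e-04). With siMITF its signal was 112 and 86.6, against 445 and 581 with siCtrl, 4.57-fold lower. The per-cell call for THZ1 is fragile: it was lost without DMSO replicate 1 (-0.83), without DMSO replicate 2 (-0.64) or without THZ1 replicate 1 (-0.58). Over 17 alternatives, some of them on other scales, limma adjusted p ran from 6.18e-04, which is the median-centred value, to 0.650. The median-centred call held in all 8 alternatives run on that scale, which left out the mean of all probe sets. The other 3 ABCB5 probe sets were below the signal floor, with median-centred changes of 0.03 to 0.08 with THZ1 and 0.24 to 0.38 with siMITF, so the ABCB5 values rest on 1 probe set.

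APOLD1 encodes a membrane protein with similarity to apolipoprotein L that is known as an early response gene of vascular endothelium. Its signal was 194 and 240 with THZ1, against 389 and 461 with DMSO. The log2 change was -0.92 per cell (95% interval -1.40 to -0.44, limma adjusted p = 0.00378), 1.90-fold lower, and -0.72 on the median-centred scale (SE 0.092, adjusted p = 2.48e-04). With siMITF it was 127 and 83.0, against 385 and 464 with siCtrl, 3.69-fold lower. The per-cell call was lost without DMSO replicate 2 (-0.80) and without THZ1 replicate 1 (-0.78). Over all 17 alternatives adjusted p ran from 1.37e-04, a median-centred value, to 0.320. The median-centred call held in all 8 alternatives run on that scale, which left out the mean of all probe sets. A second, dim probe set below the signal floor changed by 0.06 with THZ1 and 0.19 with siMITF on the median-centred scale. Of the endothelial markers, VWF alone reached the floor, with a mean signal of 62.7.

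ESRP1 is an RNA-binding protein that drives the epithelial pattern of alternative splicing. Its signal was 463 and 753 with THZ1, against 643 and 874 with DMSO. The groups overlapped, and the change of -0.33 per cell did not pass the test (95% interval -0.82 to 0.15, limma adjusted p = 0.567), nor did the median-centred change of -0.14 (95% interval -0.37 to 0.10, adjusted p = 0.335). The value is 0.0059 per cell without THZ1 replicate 1. With siMITF the signal was 134 and 94.4, against 407 and 530 with siCtrl, 3.74-fold lower. Both ESRP1 probe sets gave -1.27 with siMITF on the median-centred scale, and -0.14 and -0.21 with THZ1.

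DYNC1I1 is an intermediate chain of cytoplasmic dynein, the motor that carries cargo toward microtubule minus ends, and it is best known from neurons. Its signal was 431 and 587 with THZ1, against 397 and 497 with DMSO. The groups overlapped and the change of 0.17 per cell did not pass the test (95% interval -0.31 to 0.65, limma adjusted p = 0.905). After median centring DYNC1I1 was higher with THZ1, by 0.37 (SE 0.097, 95% interval 0.16 to 0.59, adjusted p = 0.0132). That call was lost without DMSO replicate 1 (0.37, adjusted p = 0.0562), without THZ1 replicate 2 (0.36, adjusted p = 0.0599) and with each gene's own variance (adjusted p = 0.0827), over a range of 0.00647 to 0.0827 in 8 alternatives. Per cell its sign turned without THZ1 replicate 2 (-0.04). With siMITF the signal was 113 and 69.7, against 336 and 412 with siCtrl, 3.69-fold lower. Its second probe set was the dimmest of the 18, below the signal floor, and its median-centred changes were 0.20 with THZ1 and 0.75 with siMITF.

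The shape of each gene over the 8 arrays was set against the other tested genes, leaving out symbols that start with LOC. The measure was the root mean square (RMS) difference of log2 values on the median-centred scale, each gene set to its own mean. The siMITF and siCtrl arrays, which chose the 6 genes, are among the 8. Likeness among the 6, and to other genes that fell with siMITF, is therefore partly fixed by the choice. HAS2 and TRIM63 were each other's nearest gene (0.146), and APOLD1 was nearest to ABCB5 (0.155). These distances include the difference between the drug and the siRNA arrays. Median-centred, siCtrl minus DMSO was -0.32 for HAS2, -0.33 for TRIM63 and -0.37 for ESRP1. It was 0.42 for ABCB5, 0.30 for APOLD1 and 0.05 for DYNC1I1. The part of that difference in the distances was not tested. Among the 15 pairs of the 6 genes the difference was largest between HAS2 and DYNC1I1 (0.616), and ESRP1 and DYNC1I1 lay 0.218 apart. After TRIM63, HAS2 was most like MBP, the myelin basic protein (0.147), and the zinc finger gene ZNF114 (0.158). TRIM63 was followed by NR4A3 (0.194) and UCK1, a kinase of uridine and cytidine (0.203), and ABCB5 by NR4A3 (0.179) and the thiamine transporter SLC19A2 (0.185).

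NR4A3 was also the gene nearest to APOLD1 (0.131), ahead of PPARGC1A, a coactivator of mitochondrial biogenesis (0.140). With THZ1, NR4A3 fell on both scales, by 0.80 on the log2 scale after median centring. The THZ1 and DMSO arrays are among the 8 that made NR4A3 a near gene. Its fall with THZ1 is therefore partly fixed by that choice and is given as a description. The other genes named just outside the 6 did not fall alike with THZ1. Median-centred, RAB32 (-0.13) and MZT1 (-0.05) were not called, and PBK was called higher (0.24, limma adjusted p = 0.0277). ESRP1 was most like GCLM, a subunit of the enzyme that starts glutathione synthesis (0.104), the tetraspanin TSPAN10 (0.137) and the phosphoglucomutase PGM1 (0.138). DYNC1I1 had the closest match of all 6 in RAB27A, a GTPase that ties melanosomes to actin transport (0.0782), then the peptidase inhibitor PI15 (0.0984) and CAPZA2, a capping protein subunit found in dynactin (0.119). The 8 points share preparation and scaling and carry 4 group levels.

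**Figure D4:**
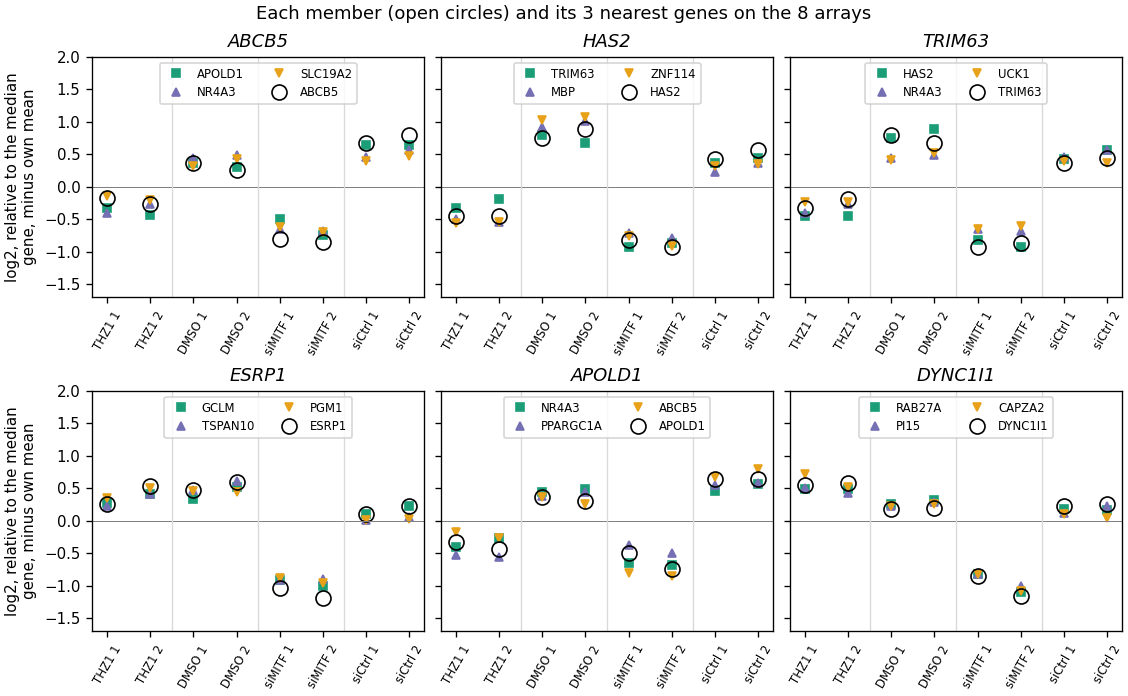
Median-centred log2 signal, minus the gene's own mean, on each of the 8 arrays for each of the 6 genes (open circles) and its 3 nearest genes (filled symbols). In the panels of ABCB5, HAS2, TRIM63 and APOLD1 both THZ1 and siMITF arrays are below 0, while in those of ESRP1 and DYNC1I1 the siMITF arrays alone are.

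Genes of the same pathways or families were taken from general knowledge, without the 6 genes, and are read against the shares of all genes called, given above. Among hyaluronan genes 12 of 21 were tested, and none passed the limma test per cell with THZ1 in either direction (1 at an unadjusted p under 0.05), while 1 was lower and 1 higher on the median-centred scale. With siMITF 5 of the 12 were lower per cell, among them HMMR, a hyaluronan receptor that is also a spindle protein (-1.45), UGDH, which makes a sugar precursor of hyaluronan (-1.43), and CEMIP2, a hyaluronidase (-1.19). After centring, 3 were lower and 4 higher with siMITF. HAS1 was not analysed here and HAS3 was below the signal floor.

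Of the ABC transporter list 14 of 17 genes were tested. With THZ1, limma called none per cell (2 at an unadjusted p under 0.05), and 3 lower and 2 higher on the median-centred scale. With siMITF 9 were lower per cell, and 3 were lower and 2 higher after centring. The largest falls per cell were those of TAP2, a peptide transporter of antigen presentation (-1.20), ABCB10, a mitochondrial transporter (-1.12), and ABCC2, a multidrug exporter (-0.95). The close relative ABCB1, the P-glycoprotein, changed by -0.07 with THZ1 (limma adjusted p = 0.979), and with siMITF it fell by 0.62 per cell (adjusted p = 0.0232) but changed by 0.02 on the median-centred scale. ABCB4, a phospholipid floppase, changed by -0.0048 per cell with THZ1 and by -0.16 with siMITF, neither passing the test. After centring it was higher with siMITF (0.47, limma adjusted p = 0.00128), and its change of 0.19 with THZ1 did not pass (adjusted p = 0.0776).

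Of the muscle atrophy list 10 of 14 genes were tested. With THZ1, 3 were lower per cell: KLF15, a transcription factor of the glucocorticoid response (-1.16), and the forkhead factors FOXO1 (-1.14) and FOXO3 (-0.69), which are known to activate TRIM63 in muscle. After centring, 6 were lower and 1, GADD45A (0.42), was higher with THZ1. With siMITF 8 were lower per cell, including FBXO32, the other classical atrophy ubiquitin ligase (-1.25), KLF15 (-0.93) and the stress gene GADD45A (-0.79), and 2 were lower and 1, FOXO3 (0.43), was higher on the median-centred scale. GADD45A with THZ1 and FOXO3 with siMITF were named after their values were seen. TRIM54 and TRIM55, which encode the other MuRF proteins, were below the signal floor.

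Of the splicing and epithelial or mesenchymal list 16 of 25 genes were tested. With THZ1, 4 were lower per cell, among them the transcription factors of the mesenchymal state SNAI2 (-1.60) and TWIST1 (-1.31) and the splicing regulator QKI (-0.75). After centring, 6 were lower and 3 higher with THZ1. With siMITF 6 were lower per cell, among them the splicing repressor PTBP1 (-0.94), E-cadherin, CDH1 (-0.87), and ENAH, an actin regulator spliced by ESRP1 (-0.82), but on the median-centred scale 1 was lower and 4 were higher. There PTBP1 stayed lower (-0.31, limma adjusted p = 0.00735), while CDH1 (-0.24, 0.0844) and ENAH (-0.19, 0.201) were not called. CDH1 signals were 28.3 and 24.2 with siMITF, below the floor, against 63.0 and 59.7 with siCtrl. On the THZ1 and DMSO arrays they were 489 to 689, and the floor was applied to the mean of all 8 arrays. ESRP2, the paralog of ESRP1, was below the signal floor.

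In the apolipoprotein L family 4 of 6 genes were tested, and limma called none with THZ1 on either scale (0 per cell and 0 median-centred at an unadjusted p under 0.05). With siMITF APOL2 (-1.07), APOL1 (-0.83) and APOL6 (-0.74) were lower per cell, and APOL2 alone of the 4 stayed lower on the median-centred scale (-0.44, limma adjusted p = 0.00416). APOL5 changed by -0.34 per cell, which was not called, and was higher on the median-centred scale (0.30, limma adjusted p = 0.0227). The dynein and dynactin list had 25 of 29 genes tested. With THZ1, NDE1, a dynein regulator (-1.23), and SPDL1, a dynein adaptor at kinetochores (-0.91), were lower per cell and none was higher. On the median-centred scale 3 were lower and 8 higher with THZ1. With siMITF 22 were lower per cell and 13 lower against 3 higher on the median-centred scale, where the list's median was -0.24, beside 0.0014 for all tested genes. The largest falls per cell were those of CAPZA2 (-1.65), DCTN3, a dynactin subunit (-1.16), and the light chain DYNLL2 (-1.15). DYNC1I2, the broadly expressed relative of DYNC1I1, changed by -0.01 with THZ1 per cell and was called higher after centring (0.19, limma adjusted p = 0.0498), as DYNC1I1 was. With siMITF DYNC1I2 changed by -0.65 (limma adjusted p = 0.0162) per cell and -0.02 on the median-centred scale.

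**Figure D5:**
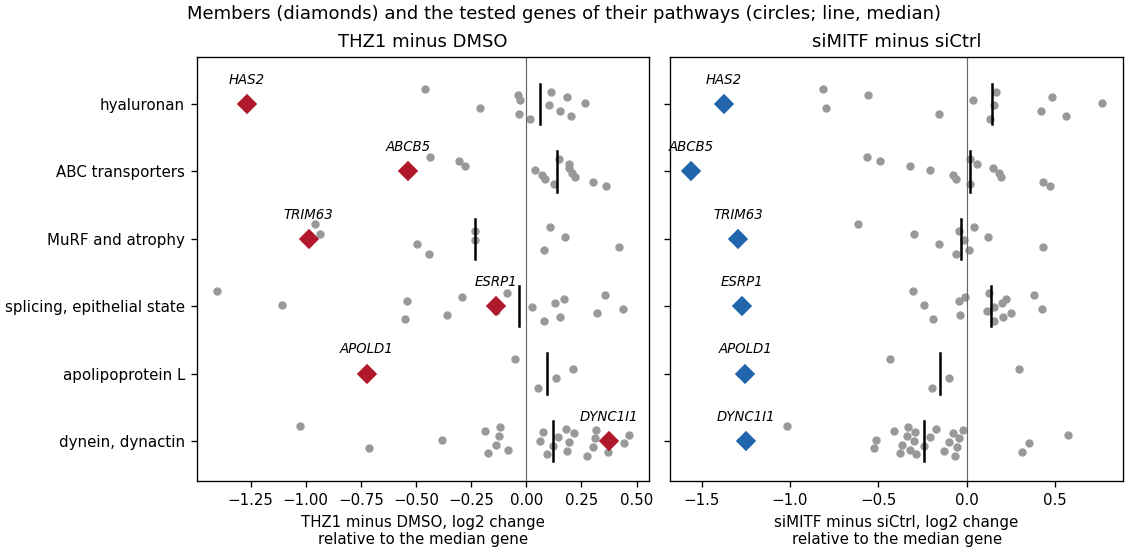
Median-centred log2 change (relative to the median gene) of each of the 6 genes (diamonds) and of the tested genes of its list (circles, with a line at the list median), with THZ1 (left) and siMITF (right). With siMITF each diamond lies left of every circle in its row, which the choice of the 6 fixes; with THZ1 the HAS2, ABCB5, TRIM63 and APOLD1 diamonds do so, TRIM63 (-0.99) just past KLF15 (-0.96), and the DYNC1I1 diamond lies right of its list's median (0.12).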

How the data were processed

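The authors summarised 49495 probe sets with MAS5, per the submitters' processing notes (no version given), and deposited array signals (intensity, linear scale) that the design text calls cell-number normalized; ERCC spike-ins followed cell number, per the labels' protocols, and how the scaling was computed is not given in the sources used here. From these, log2(signal + 16) was computed. For each gene the brightest probe set carrying 1 symbol was used, and it was tested at or above the signal floor of 39.2, the 40th percentile. limma 3.58.1 in R 4.3.3 was fitted with 1 mean per group over all 8 arrays, and p-values were Benjamini-Hochberg adjusted over 11947 genes, with 0.05 as the threshold. Per cell the variance prior had infinite degrees of freedom, which gives all genes an SE of 0.25 and lets small p overstate the evidence. On the median-centred scale, added after seeing the data, the prior had 5.97 beside 4 residual ones. Symbols of 45208 of 45278 probe sets were matched by gene ID to RefSeq. Changes on the log2(signal + 16) scale understate those of dim genes. The code was tested on simulated data. The members and lists were chosen with earlier results of these data known. Named genes were MITF, CDK7, the 6 genes, the next 4 falls, 3 nearest genes each, up to 3 called genes per list and comparison, and the paralogs; FAM83D was named after its value was seen. CDK7 had signals of 251 and 323 with THZ1 against 395 and 493 with DMSO (-0.60 per cell, adjusted p = 0.105; -0.41 median-centred, adjusted p = 0.00148). Alternatives covered scale, offset, floor, probe sets, variance, block and left-out arrays.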

Additional observations from a re-analysis of the deposited data

How the results depend on the processing

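The number of genes called with THZ1, 1208 per cell, was 4635 after median centring, 4258 after quantile normalization, 3230 on the median-centred scale with each gene's own variance and 4423 there with the replicate number as a block; per cell the block gave 1547. With own variance per cell it was 0 in limma (1444 at an unadjusted p under 0.05), and with 1 array left out 250 (without DMSO replicate 2) to 2102 (without THZ1 replicate 2), with 368 without THZ1 replicate 1. With siMITF it was 7608 per cell, 5276 on the median-centred scale (3252 without siMITF replicate 2, 3455 without siCtrl replicate 2, up to 4590), 4548 after quantile normalization (1887 lower, 2661 higher), 3688 with own variance on the median-centred scale, 0 with own variance per cell (5705 unadjusted) and 1771 (without siCtrl replicate 2) or 1850 (without siMITF replicate 2) to 7539 with 1 array left out. The labels do not say that replicate numbers pair arrays; same-numbered deviations correlated at 0.11 for THZ1 with DMSO and -0.18 for siMITF with siCtrl. With siMITF the block called 8525 genes per cell as numbered and 11135 with crossed numbers.

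ABCB5 with THZ1 lost its call with spike-in centring (-0.69, adjusted p = 0.0668), an offset of 1 (-0.77, 0.0514), the mean of all probe sets (-0.29, 0.650), its own set of arrays (-0.73, 0.0756) and own variance (-0.73, 0.352), and ran from -0.89 to -0.58 with 1 array left out. APOLD1 lost it with the mean of probe sets (-0.53, 0.136) and own variance (-0.92, 0.320), and ran from -1.07 to -0.78. HAS2 (-1.47, 0.280; -1.69 to -1.24) and TRIM63 (-1.19, 0.281; -1.46 to -0.91) lost it with own variance alone. On the median-centred scale the calls of these 4 genes held in all 8 alternatives. The mean of all probe sets was not run on that scale. ESRP1 ran from -0.68 to 0.0059, which is the value without THZ1 replicate 1; median-centred it ran from -0.28 to 0.0050. DYNC1I1 was called higher on the median-centred scale (0.37), after quantile normalization (0.35) and with the block on the median-centred scale (0.37), and ran from -0.042, without THZ1 replicate 2, to 0.39.

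With siMITF the order of the 6 falls has no test. On the median-centred scale, also with own variance or the block, they were -1.56, -1.37, -1.29, -1.27, -1.25 and -1.25 for ABCB5, HAS2, TRIM63, ESRP1, APOLD1 and DYNC1I1, and after quantile normalization -1.48, -1.16, -1.08, -1.16, -1.15 and -1.18. An offset of 64 gave -1.81 for ABCB5, -1.58 for ESRP1, -1.54 for APOLD1 and -1.50 for DYNC1I1, and the mean of all probe sets gave -0.78 for ABCB5, -1.34 for TRIM63, -1.16 for APOLD1 and -0.88 for DYNC1I1. Precision is limited by 2 arrays per group, and for 5 of the 18 probe sets by signals below the floor. The causes of these shifts were not tested.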
